A study of Mus musculus with 28 samples.

Results

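Ifitm1, Ifitm2 and Ifitm3 are 3 genes of the interferon-induced transmembrane family. They were chosen by symbol out of 25124 genes in a table of transcript levels, with earlier results of the same libraries in view, in which they were high in SPF mice given aCD3. Their differences between the 4 groups are therefore given as a description, without a p-value. The cells were CD4+ T cells of the small intestinal lamina propria (live, CD45+, CD90.2+, TCRb+, CD4+), sorted from T-bet-ZsGreen mice, in which a fluorescent protein reports the transcription factor T-bet. SPF mice, with a gut flora free of specified pathogens, and GF mice, which are germ-free, received either aCD3, an antibody that binds the CD3 chains beside the T cell receptor, or an isotype control. There were 6 libraries each of SPF isotype and SPF aCD3, 3 labelled female and 3 male in either group. Of the germ-free groups, GF isotype had 10 libraries, 5 labelled female and 5 male, and GF aCD3 had 6 libraries, 1 labelled female and 5 male. All 28 libraries come from mice with the reporter. Dose, time after injection and age of the mice are not given in the sources used here.

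Ifitm proteins are small, palmitoylated membrane proteins induced by interferons. They restrict the fusion of enveloped viruses with cell membranes: Ifitm3 acts mainly in late endosomes, and Ifitm1 is found more at the cell surface. Interferons of type I act on target genes through the interferon-stimulated response element (ISRE), and interferon gamma acts through the gamma-activated sequence (GAS). Ifitm transcripts are found in T cells as well as in barrier tissue.

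The members lie together on mouse chromosome 7 (build mm10). Ifitm2 (NM_030694) spans 140954839 to 140955961 on the minus strand, Ifitm1 (NM_001360728) 140968076 to 140969827 on the plus strand and Ifitm3 (NM_025378) 141009590 to 141010744 on the minus strand. Stretches of 12114 bases lie between Ifitm2 and Ifitm1 and 39762 between Ifitm1 and Ifitm3. Each gene has 2 exons in the nearest GENCODE transcript. Ifitm5 lies 4595 bases from Ifitm2, and Ifitm6 lies 5067 bases from Ifitm3.

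The start regions are shown because the members moved together in SPF mice and interferons act on such genes through ISRE and GAS motifs near the start. Each runs from 120 bases before to 30 bases after the RefSeq start site (build GRCm38.p6), 5′ to 3′ on the strand of the gene, with matches to the ISRE core GAAANNGAA in capitals.
Ifitm1, chr7:140967956-140968105, plus strand: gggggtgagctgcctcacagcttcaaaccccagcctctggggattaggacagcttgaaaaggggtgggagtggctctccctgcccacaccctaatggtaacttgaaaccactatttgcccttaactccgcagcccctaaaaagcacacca
Ifitm2, chr7:140955932-140956081, minus strand: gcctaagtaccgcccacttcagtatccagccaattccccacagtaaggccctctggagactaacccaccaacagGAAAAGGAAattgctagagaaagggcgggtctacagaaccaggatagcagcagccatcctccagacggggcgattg
Ifitm3, chr7:141010715-141010864, minus strand: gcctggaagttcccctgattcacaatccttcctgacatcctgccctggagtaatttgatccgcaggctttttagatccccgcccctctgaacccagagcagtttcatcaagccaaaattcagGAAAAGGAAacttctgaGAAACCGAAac
All 3 members matched a RefSeq promoter of 250 bases before and 50 bases after the start site. The ISRE core was searched on both strands of that whole window. Ifitm3 held 2 matches, at 3 and at 20 counting the first transcribed base as 1. Ifitm2 held 1 match, at -46, and Ifitm1 held 0. For Ifitm1 this covers the 1 start site shown, while GENCODE lists 3 transcripts of the gene, and any other start was not searched. The GAS letters TTCNNNGAA matched at 14 in Ifitm3, where the match shares 3 bases with the second ISRE core, and in neither Ifitm1 nor Ifitm2. Of 32851 RefSeq promoters of the same length, 8.56% held the ISRE core at least once, 0.624% held it at least 2 times and 8.30% held the GAS letters. Among 48 promoters of 36 interferon-stimulated genes of the list used below, 47.9% held the ISRE core, 29.2% held it at least 2 times and 14.6% held the GAS letters. A match of letters is not evidence of binding.

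The depth behind the values is small for Ifitm1. Reads in genes ranged from 6765527 to 17860988 per library. Levels are in TPM, a share of the reads of a library scaled by gene length, here the genomic span with introns. The span is 1751 bases for Ifitm1, 1122 for Ifitm2 and 1154 for Ifitm3. A TPM equal to 3 reads, the limit that a count of 0 allows, was between 0.702 and 1.85 TPM for Ifitm1. Such limits cover counting error only. Histone genes took between 4.05% and 27.1% of summed TPM per library, and the share was higher in all SPF aCD3 libraries and in 3 of 6 GF aCD3 libraries than in any isotype library. The summed level of 9 CD4 T cell markers ran from 1845 to 2474 TPM in the 28 libraries.

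Ifitm3 reached its highest level in SPF mice given aCD3. In SPF isotype, Ifitm3 ranged from 7.86 to 18.0 TPM, with a median of 14.9 TPM. In SPF aCD3 it ranged from 151 to 300.1 TPM, with a median of 217 TPM. All SPF aCD3 libraries lay above all SPF isotype libraries. The values rested on 13 to 40 reads per SPF isotype library and 293 to 737 reads per SPF aCD3 library. The mean level was 13.6 ± 3.79 TPM (SD, n = 6) in SPF isotype and 222 ± 58.6 TPM (SD, n = 6) in SPF aCD3. The fitted difference on the log2(TPM + 1) scale was 3.94 (SE 0.53, 95% interval 2.85 to 5.02), against a median of -0.35 over the 12182 genes tested.

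Ifitm2 moved in the same direction over a smaller range. Its level ranged from 8.70 to 17.4 TPM in SPF isotype, with a median of 11.3 TPM, and from 29.1 to 50.1 TPM in SPF aCD3, with a median of 36.3 TPM. All SPF aCD3 libraries lay above all SPF isotype libraries. The mean was 11.8 ± 3.32 TPM (SD, n = 6) in SPF isotype and 37.4 ± 7.63 TPM (SD, n = 6) in SPF aCD3. The fitted log2 difference was 1.60 (SE 0.34, 95% interval 0.90 to 2.29).

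Ifitm1 was close to absent without aCD3. In SPF isotype, 4 of 6 libraries held 0 reads, the library F1 held 1 read (0.329 TPM) and the library M3 held 4 reads (1.24 TPM). In SPF aCD3, every library held reads, between 10 and 62, or 204 in all against 5 in SPF isotype. The levels were 4.08, 2.95 and 5.36 TPM in the female libraries and 19.3, 12.9 and 21.4 TPM in the male ones. No SPF aCD3 library overlapped SPF isotype. The fitted log2 difference was 3.01 (SE 0.37, 95% interval 2.25 to 3.77), a value that depends on the pseudocount of 1. It was 5.44 with a pseudocount of 0.1 and 1.45 with a pseudocount of 5. All 3 members passed the filter on low values (1 TPM or more in 6 libraries).

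Beside these values, 8.57% of the genes tested lay higher in SPF aCD3 than in SPF isotype with no overlap, and 14.2% were higher and 50.7% lower at a limma adjusted p under 0.05. After rescaling by median of ratios (below, rescaling) the split of calls was 3727 higher and 3575 lower, against 1726 higher and 6172 lower in TPM. The members kept their direction after rescaling. The choice of the members used this comparison, so nothing is read from their count.

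**Figure D1:**
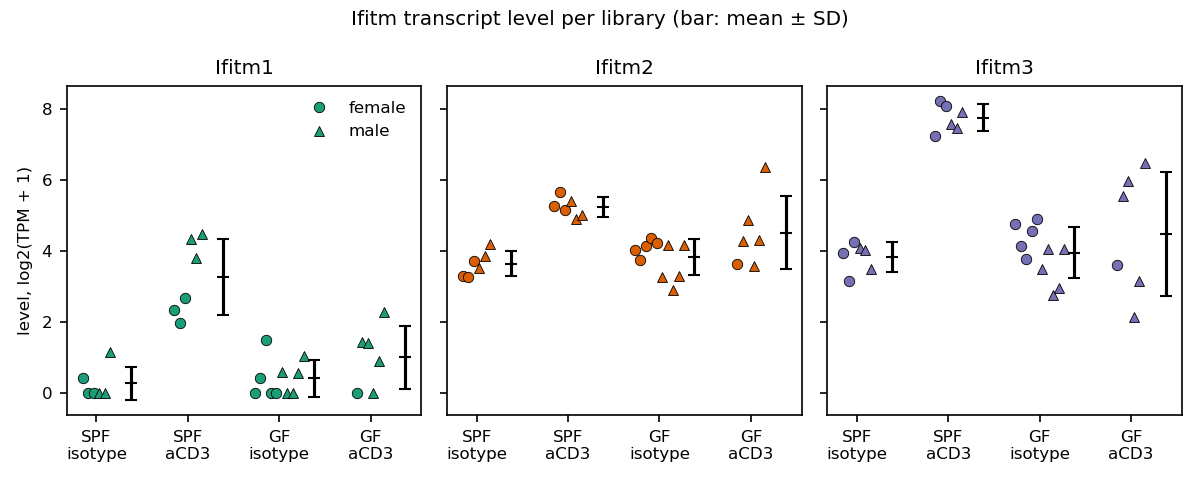
Level of Ifitm1, Ifitm2 and Ifitm3 in log2(TPM + 1) in each library by group, circles for female and triangles for male libraries, with the mean and SD of each group as a bar. SPF aCD3 libraries lie above SPF isotype libraries for all 3 genes, while GF aCD3 libraries spread widely.

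The proportion of the members changed along with their level. The ratio of Ifitm3 to Ifitm2 within a library, which no scaling of the library can change, ranged from 0.594 to 1.66 in SPF isotype, with a mean of 1.21 ± 0.412 (SD, n = 6). In SPF aCD3 it ranged from 4.01 to 7.79, with a mean of 6.04 ± 1.56 (SD, n = 6). In GF isotype it ranged from 0.756 to 1.70 (1.13 ± 0.342, SD, n = 10). In GF aCD3 it was 0.972 in F1, 2.50 in M1, 2.18 in M2, 0.313 in M3, 0.417 in M4 and 1.07 in M5. Thus no GF aCD3 library reached the lowest SPF aCD3 ratio, while M1 and M2 lay above all isotype libraries. The ratio shows unequal change and says nothing on which of the pair changed.

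**Figure D2:**
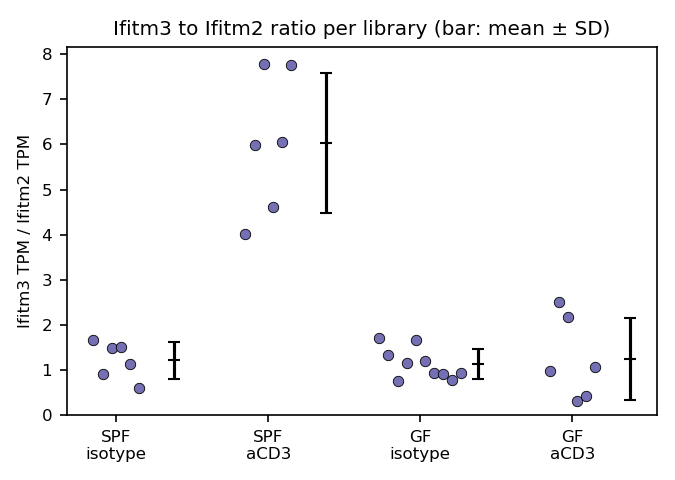
Ratio of Ifitm3 TPM to Ifitm2 TPM in each library by group, with the mean and SD as a bar. The 6 SPF aCD3 libraries sit between 4.01 and 7.79, above every other library.

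In GF mice the libraries given aCD3 differed widely in Ifitm level. Ifitm3 ranged from 5.81 to 29.05 TPM in GF isotype, with a median of 15.7 TPM. In GF aCD3 it was 11.1 TPM in F1, 45.8 in M1, 61.8 in M2, 3.44 in M3, 7.92 in M4 and 87.9 in M5. The libraries M1, M2 and M5 lay above every GF isotype library, and M3 lay below all of them. The fitted log2 difference was 0.62 (SE 0.49, 95% interval -0.37 to 1.62). Without M5 it was 0.24, and without M3 it was 1.06.

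Ifitm2 in GF isotype ranged from 6.43 to 19.8 TPM, with a median of 16.0 TPM. In GF aCD3 it was 11.4 TPM in F1, 18.3 in M1, 28.4 in M2, 10.99 in M3, 19.0 in M4 and 82.1 in M5. Only M2 and M5 lay above every GF isotype library. The fitted log2 difference was 0.69 (SE 0.31, 95% interval 0.05 to 1.34), and 0.34 without M5.

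Ifitm1 rested on few reads in GF mice. It held 0 reads in 5 of 10 GF isotype libraries and at most 6 reads in the others, or 15 reads in all. In GF aCD3 it held 0 reads in F1 and M3 and reached 3.81 TPM (10 reads) in M5, above the lowest SPF aCD3 library, with 22 reads in all. The fitted log2 difference was 0.36 (SE 0.34, 95% interval -0.34 to 1.07), and 0.14 without M5 and 0.58 without M3. For all 3 members GF aCD3 overlapped GF isotype. Of all genes tested, 2.46% were higher and 4.61% lower in this comparison (limma adjusted p under 0.05), or 685 higher and 500 lower after rescaling against 300 and 562 in TPM.

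The GF aCD3 libraries with the most Ifitm3, M1, M2 and M5, were also high for Lag3 and Il10. Lag3, an inhibitory receptor of activated T cells, was at 498 TPM in M1, 452 in M2 and 527 in M5, and at 9.59 in F1, 17.0 in M3 and 12.3 in M4. In SPF aCD3, Lag3 ranged from 505 to 825 TPM. Il10, an inhibitory cytokine, was at 403, 588 and 630 TPM in M1, M2 and M5, and at 93.5, 109 and 141 TPM in F1, M3 and M4. Histone genes took 23.8%, 23.4% and 26.3% of summed TPM in M1, M2 and M5 and between 5.67% and 7.79% in the others. Even in M1, M2 and M5, Ifitm3 stayed below the lowest SPF aCD3 value of 151 TPM. The part of the histone share in the Ifitm level was not tested.

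**Figure D3:**
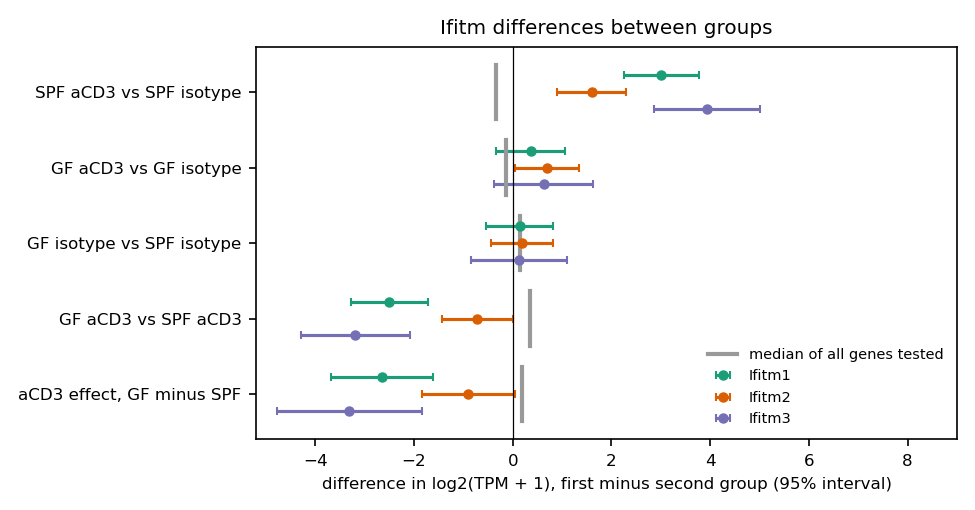
Differences in log2(TPM + 1) for the 3 members in each of 5 comparisons (points), with 95% intervals (bars) and the median of all genes tested (grey). The members were chosen with earlier results of these libraries in view, so the intervals are a description and no test. Points of SPF aCD3 against SPF isotype lie above 0, and intervals of GF isotype against SPF isotype span 0.

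Without aCD3 the levels of the members overlapped between GF and SPF mice. GF isotype against SPF isotype gave log2 differences of 0.14 (SE 0.33, 95% interval -0.54 to 0.82) for Ifitm1, 0.18 (SE 0.30, 95% interval -0.44 to 0.81) for Ifitm2 and 0.12 (SE 0.47, 95% interval -0.84 to 1.09) for Ifitm3. The groups overlapped for each, and the difference of Ifitm3 was -0.02 after rescaling. The median of all genes tested was 0.15, and 6.42% were higher and 0.755% lower in GF isotype, with 66 higher and 133 lower after rescaling against 782 and 92 in TPM. Intervals of this width do not show that the groups were alike.

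After aCD3 the mean levels of the members were lower in GF than in SPF mice, with overlap for Ifitm1 and Ifitm2. The log2 difference was -2.50 (SE 0.38, 95% interval -3.28 to -1.72) for Ifitm1, -0.72 (SE 0.35, 95% interval -1.43 to -0.005) for Ifitm2 and -3.19 (SE 0.54, 95% interval -4.30 to -2.08) for Ifitm3. Without the GF aCD3 library F1 the difference of Ifitm2 was -0.45, without M5 it was -1.07, and after rescaling it was -1.11. The GF aCD3 library M5, at 82.1 TPM, had more Ifitm2 than any SPF aCD3 library. Ifitm3 alone did not overlap, with the highest GF aCD3 library at 87.9 TPM and the lowest SPF aCD3 library at 151 TPM. Of the genes tested, 0.78% were lower in GF aCD3 with no overlap. At a limma adjusted p under 0.05, 48.9% were higher and 4.46% lower, or 1927 higher and 2059 lower after rescaling against 5953 and 543 in TPM. The difference of the aCD3 effect, GF minus SPF, was -2.64 (SE 0.50, 95% interval -3.68 to -1.61) for Ifitm1, -0.90 (SE 0.46, 95% interval -1.85 to 0.04) for Ifitm2 and -3.31 (SE 0.71, 95% interval -4.78 to -1.84) for Ifitm3, beside a median of 0.20 over all genes. Of all genes, 2.44% had a higher and 1.04% a lower effect in GF, or 629 and 793 genes after rescaling against 297 and 127. These comparisons share libraries with those above and are no independent support of them. Sample numbers in the column names differ between SPF (1 to 12) and GF (25 to 33 and 48 to 54), so that colonisation and whatever goes with those numbers cannot be told apart. No label says what the numbers stand for. Within each of the GF number ranges the mean log2 difference of aCD3 to isotype was 0.53 and 0.66 for Ifitm1, 0.54 and 0.77 for Ifitm2 and 0.73 and 0.28 for Ifitm3.

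The order of the group means was SPF aCD3, GF aCD3, GF isotype and SPF isotype for each member. For Ifitm3 the last 3 overlapped, and for Ifitm1 and Ifitm2 all neighbours in that order overlapped. In bulk RNA, fewer cells with a transcript and less transcript per cell cannot be told apart.

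Sex was not used to choose the members. Over the 28 libraries, the log2 difference of male to female was 0.68 (SE 0.25) for Ifitm1, with a limma p of 0.0127 and an adjusted p of 1.00. For Ifitm2 it was -0.04 (SE 0.23) and for Ifitm3 -0.27 (SE 0.36), both with a limma adjusted p of 1.00. Within SPF isotype the difference of Ifitm1 was 0.25 (limma p = 0.584) and within GF isotype 0.05 (limma p = 0.878). Within SPF aCD3 the male libraries lay above the female ones for Ifitm1 with no overlap, as 8.04% of genes tested did. There the log2 difference was 1.88 (SE 0.45), with a limma p of 0.000382 and an adjusted p of 0.109. The two-sided exact permutation test of the 3 male against the 3 female libraries gave p = 0.1, the smallest it can give. This comparison was chosen after its values were seen. The difference in the aCD3 effect by sex in SPF was 1.63 for Ifitm1 (SE 0.64, limma adjusted p = 0.537).

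Many interferon-stimulated genes rose in SPF mice given aCD3. Of 51 listed genes 48 were tested, and 28 rose, 6 fell and 14 did not pass in SPF aCD3 against SPF isotype (limma adjusted p under 0.05), with a median of 0.56 against -0.35 over all genes. As shares, 58.3% rose and 12.5% fell, beside 14.2% and 50.7% of all genes. After rescaling 39 rose and 0 fell, and voom called 40 higher and 1 lower. Ifi27l2a, an interferon-induced mitochondrial protein, rose by 3.54 (SE 0.48, limma adjusted p = 4.20e-06), from 62.0 ± 30.6 to 673 ± 148 TPM (SD, n = 6). Ifi204, a DNA sensor of the PYHIN family, rose by 2.55 (SE 0.24, limma adjusted p = 1.21e-07). Dhx58, an RNA helicase, rose by 2.05. Ifi47, a GTPase, Epsti1 and Ifit1bl1 fell by 0.70, 0.75 and 0.93. None of those 3 passed after rescaling, where limma adjusted p was 0.0565, 0.117 and 0.0967.

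In GF mice 2 of these 48 genes (4.17%) rose and 0 fell by limma, near the 2.46% of all genes that rose. The median was 0.16 against -0.15 over all genes. The genes called were Ifi27l2a, by 1.80, and Eif2ak2, a kinase activated by double-stranded RNA, by 0.68 (limma adjusted p = 0.0481 for each). At an unadjusted p under 0.05, 9 were higher and 3 lower, and voom on recovered reads called 3 higher and 0 lower. The count was not stable: with 1 library left out, 0 genes passed as higher in 25 of 28 fits, 10 without the GF aCD3 library M4, and 9 without F1 or M3 of that group. In GF isotype against SPF isotype 2 (4.17%) were higher by limma, below the 6.42% of all genes. They were Eif2ak2 by 0.64 and Parp12 by 0.46, with 10 at an unadjusted p under 0.05. After rescaling 0 passed, as with voom. In GF aCD3 against SPF aCD3, 5 (10.4%) were higher and 15 (31.2%) lower, beside 48.9% and 4.46% of all genes. After rescaling 1 was higher and 25 lower. Without the GF aCD3 library F1 the lower count was 5. The lower genes included Ifi204 by -1.86, Ifi27l2a by -1.604 and Oasl2 by -1.36. Tor3a, Ifi47 and Ifi203 were higher, by 0.67, 0.59 and 0.41. After rescaling Ifi47 was at 0.18 (limma adjusted p = 0.295) and Ifi203 at -0.003 (0.984), neither past the threshold. The effect itself was lower in GF than in SPF for 1 of 48 (2.08%, near the 1.04% of all genes). This was Ifi204, by -1.99 (SE 0.33, limma adjusted p = 0.00265). After rescaling the effect was lower for 13 of 48, beside 793 of all 12182 genes, a larger share of the list than of all genes. In TPM the count was 19, 15 and 18 without the GF aCD3 libraries M1, M2 and M5. It was 8 without the SPF aCD3 library F1 and 6 without the SPF isotype library F3. Shares over all genes are not given for these fits.

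**Figure D4:**
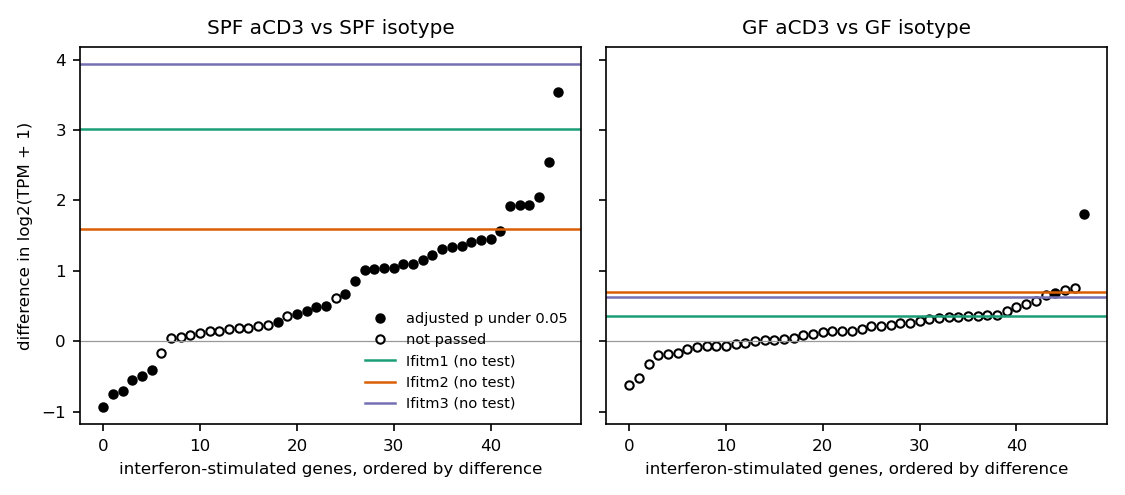
Differences in log2(TPM + 1) of the 48 tested interferon-stimulated genes, ordered, in SPF (left) and GF mice (right), filled where the limma adjusted p was under 0.05. Coloured lines are the members, which in SPF lie at 3.01, 1.60 and 3.94.

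Interferon gamma was the ligand called in SPF mice given aCD3. Of 18 listed interferon ligands 2 passed the filter. Ifng, interferon gamma, had a mean of 217 ± 30.96 TPM in SPF isotype and 299.6 ± 48.005 TPM in SPF aCD3 (SD, n = 6), a rise of 0.46 (SE 0.13, limma adjusted p = 0.00351), and was lower in GF aCD3 than in SPF aCD3 by -0.48 (limma adjusted p = 0.00526). After rescaling these differences of Ifng were 0.88 and -0.89. Between GF aCD3 and GF isotype its log2 difference was -0.06 (limma adjusted p = 0.745). The difference of its aCD3 effect, GF minus SPF, was -0.52 (limma adjusted p = 0.0699), which did not pass, and -0.77 (limma adjusted p = 0.0297) after rescaling. Of 18 tested genes of interferon signalling, 2 rose and 13 (72.2%) fell in SPF aCD3, where 50.7% of all genes fell. The median was -0.54 against -0.35 over all genes, and 4 rose and 7 fell after rescaling. Irf8, a transcription factor, rose by 1.36 and Stat2 by 0.30. Jak2, a kinase of the interferon gamma receptor, fell by 1.28 and Pias1, an inhibitor of interferon signalling, by 1.18. Both fell after rescaling too. In GF aCD3, 0 rose and 2 (11.1%) fell by limma, beside 2.46% and 4.61% of all genes. Ifnar2 fell by 0.57 and Irf1 by 0.58, with 1 higher and 11 lower at an unadjusted p under 0.05 and 0 higher and 4 lower by voom. In GF isotype against SPF isotype 2 (11.1%, beside 6.42% of all genes) were higher, Ifnar1 by 0.75 and Irf8 by 0.68. After rescaling Ifnar1 alone passed, and Irf8 was at 0.54 (limma adjusted p = 0.246). In GF aCD3 against SPF aCD3 12 of 18 (66.7%) were higher, beside 48.9% of all genes, with Ifnar1 by 0.95 and Jak2 by 0.85, and 3 higher and 1 lower after rescaling. The difference of the effect passed for 0 by limma in TPM, beside 2.44% higher and 1.04% lower of all genes. After rescaling 0 were higher and 1 lower, Irf8 by -1.11 (limma adjusted p = 0.0349), beside 629 and 793 of 12182 genes. At an unadjusted p under 0.05 in TPM, 3 were higher and 1 lower, and voom called 1 each.

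Genes whose products modify or bind Ifitm proteins had a median difference of -0.40 in SPF aCD3, near the -0.35 of all genes. Of 16 tested, 0 rose and 10 (62.5%) fell by limma, where 50.7% of all genes fell. The counts were the same at an unadjusted p under 0.05, and 3 rose and 6 fell after rescaling and by voom. Nedd4, a ubiquitin ligase that targets Ifitm3, fell by 1.34 (SE 0.23, limma adjusted p = 2.94e-05). Setd7, a methyltransferase that acts on Ifitm3, fell by 1.11. In GF aCD3, 2 (12.5%, beside 4.61% of all genes) fell, Nedd4 by 0.76 and Vapa, which binds Ifitm3 at membranes, by 0.34. After rescaling Vapa was at -0.17 (limma adjusted p = 0.0647), and 1 gene passed as lower, as with voom. In GF isotype against SPF isotype 2 (12.5%, beside 6.42% of all genes) were higher, Zmpste24 by 0.27 and Vcp by 0.24, with 8 at an unadjusted p under 0.05. After rescaling 0 passed, as with voom. In GF aCD3 against SPF aCD3 14 of 16 (87.5%) were higher, beside 48.9% of all genes, with Fyn, a kinase that phosphorylates Ifitm3, by 1.00 and Nedd4 by 0.93, and 5 higher and 2 lower after rescaling. Fyn alone had a higher effect in GF than in SPF (6.25%, beside 2.44% of all genes), by 0.82 (SE 0.23, limma adjusted p = 0.0493).

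Other genes around the cluster had differences between -0.42 and 1.26 in SPF mice. Within 100 kb of the members lay 14 other genes, 11 of them tested. In SPF aCD3, 3 rose and 2 fell, with a median of 0.06 against -0.35 over all genes, while voom called 5 higher and 0 lower. Of all genes, 14.2% rose and 50.7% fell. Ifitm6 rose by 1.26 (SE 0.44, limma adjusted p = 0.0146), from 0.443 ± 0.528 to 2.47 ± 1.28 TPM (SD, n = 6), at 0 to 7 reads per library. Pkp3, a plakophilin, rose by 0.55 and Pgghg by 0.39. Bet1l and Ric8a fell by 0.42 and 0.30, with neither past the threshold after rescaling. B4galnt4 and Sigirr passed as higher after rescaling, by 0.48 and 0.52. In TPM, limma called 0 of the 11 in the GF comparison of aCD3 to isotype, between the isotype groups and for the difference of the effect. Of all genes 2.46%, 6.42% and 2.44% were higher and 4.61%, 0.755% and 1.04% lower there. At an unadjusted p under 0.05 these comparisons gave 1, 0 and 1, all lower, and voom called 0, 0 and 1. After rescaling Sigirr passed as higher in the first, by 0.37 (limma adjusted p = 0.0487), beside 685 of 12182 genes. Pkp3 passed as lower for the difference of the effect, by -0.66 (limma adjusted p = 0.0466), beside 793 of 12182 genes. In GF aCD3 against SPF aCD3, Bet1l and Sirt3 were higher, by 0.35 and 0.30, and Pkp3 lower, by -0.40. That is 2 higher and 1 lower of 11, beside 48.9% and 4.46% of all genes. After rescaling Bet1l was at -0.04 (limma adjusted p = 0.815) and Sirt3 at 0.08 (0.559), and voom called 0 of the neighbours higher and 3 lower. Ifitm5 ranged from 0 to 9 reads per library and did not pass. Ifitm10 on the same chromosome had a mean of 0.863 ± 0.573 TPM in SPF isotype (SD, n = 6) and 0.202 ± 0.0969 TPM after aCD3 (SD, n = 6), on 153 and 38 reads in all. Its mean was 1.27 ± 0.579 TPM in GF isotype (SD, n = 10) and 0.718 ± 0.682 TPM in GF aCD3 (SD, n = 6), and Ifitm7 on chromosome 16 held 0 reads in all 28 libraries.

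**Figure D5:**
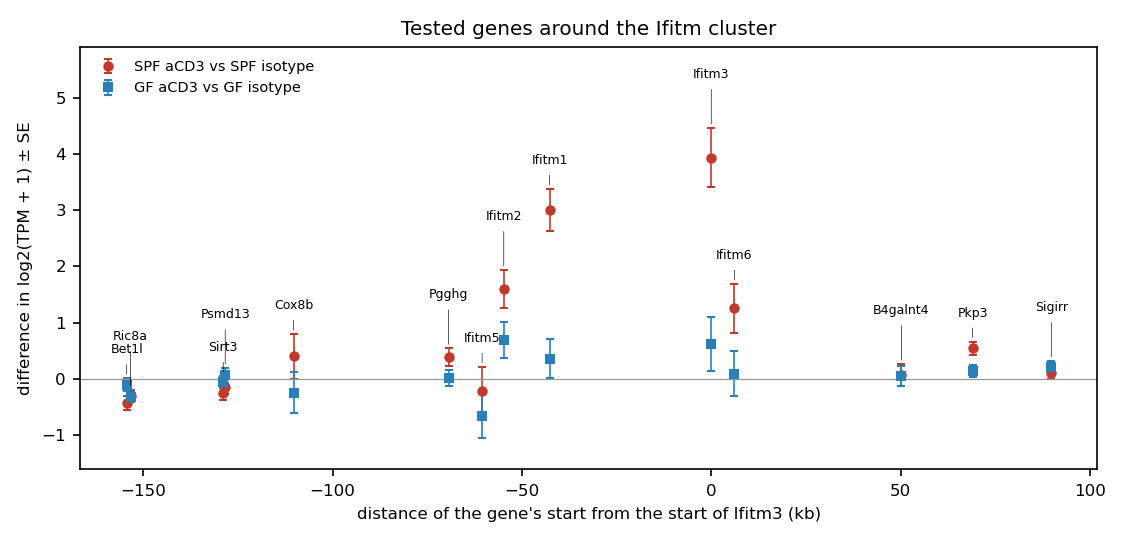
Differences in log2(TPM + 1) ± SE of tested genes against the distance of their start from the start of Ifitm3 in kb, for SPF (circles) and GF mice (squares). Ifitm1, Ifitm2, Ifitm3 and Ifitm6 stand above their neighbours in SPF.

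Expression of the members ran closest to a small set of other genes over the 28 libraries, by Pearson's r of log2(TPM + 1) among 8024 genes. For Ifitm3 these were Ifi204 (r = 0.947), Havcr2, which encodes the inhibitory receptor Tim-3 (0.933), Ecm1 (0.924), AI506816 (0.922) and Ifi209 (0.920). For Ifitm2 they were Sdf4 (0.883), Hif1a (0.871), Ap1s1 (0.870), Havcr2 (0.868) and Ecm1 (0.867). For Ifitm1 they were Gpx8 (0.896), Gstm1 (0.885), Snx9 (0.875), Tnip3 (0.859) and Lgals1 (0.858). Between members r was 0.847 for Ifitm2 and Ifitm3, 0.822 for Ifitm1 and Ifitm3 and 0.735 for Ifitm1 and Ifitm2. After removal of group means and sex, Ifitm3 was the gene most like Ifitm2 (r = 0.753), while Havcr2 (0.871), Plek (0.867), AI506816 (0.864), Tnip3 (0.859) and Ctsb (0.852) were most like Ifitm3. Within groups, Serpinb6b (0.711) and Ap1s1 (0.706) led for Ifitm1, whose r was 0.444 with Ifitm2 and 0.432 with Ifitm3. These libraries share group and scaling, so each r is a description without a p.

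The sort kept CD45+, CD90.2+, TCRb+, CD4+ cells, and markers of other cell types were summed per library. The 14 myeloid markers summed to between 4.73 and 14.7 TPM in SPF isotype, 59.3 and 149.9 TPM in SPF aCD3, 5.82 and 26.7 TPM in GF isotype and 10.8 and 70.8 TPM in GF aCD3, with 6 of 14 higher in SPF aCD3 than SPF isotype in mean. Most of that rise was Cd68, a lysosomal protein, with a mean of 5.99 TPM in SPF isotype and 76.5 TPM in SPF aCD3, and S100a8 was at 0 in 4 of 6 SPF aCD3 libraries and at most 65.5 TPM. Cx3cr1, Cd14, S100a9 and Itgam also had higher means in SPF aCD3, 1.24, 0.535, 4.30 and 0.126 TPM against 0.395, 0, 0 and 0.0957 TPM in SPF isotype. The macrophage markers C1qa and C1qb were at 0 in 6 of 6 SPF aCD3 libraries, C1qc was at 0 in 5 of 6, Csf1r was at most 0.161 TPM, Lyz2 at most 0.503 TPM and Adgre1 at most 0.010 TPM. The 6 innate lymphoid markers summed to between 27.998 and 44.97 TPM in SPF isotype and 96.4 and 122 TPM in SPF aCD3, against 14.8 to 43.7 TPM in GF isotype and 17.6 to 106.5 TPM in GF aCD3, with 3 of 6 higher in SPF aCD3 than SPF isotype in mean, mostly Areg, at a mean of 96.1 TPM. Kit had a mean of 4.59 TPM in SPF aCD3 and 1.04 TPM in SPF isotype, and Il1rl1 one of 5.72 and 4.73 TPM. Ncr1 and Eomes had means of 0.237 and 0.422 TPM in SPF aCD3, below those of 3.91 and 3.06 in SPF isotype. Markers of B and plasma cells summed to between 96.3 and 272 TPM in SPF isotype and 3.16 and 9.05 TPM in SPF aCD3, and stromal markers to between 5.26 and 50.0 TPM and between 0.764 and 2.91 TPM. The sums in GF isotype were 11.3 to 114 TPM for B and plasma cell markers and 0.796 to 4.01 TPM for stromal markers, and those in GF aCD3 were 6.67 to 97.7 TPM and 0.583 to 4.22 TPM. Endothelial markers summed to 7.90 to 12.5 TPM in SPF isotype, 2.61 to 4.175 TPM in SPF aCD3, 6.60 to 16.998 TPM in GF isotype and 3.32 to 15.3 TPM in GF aCD3. Epithelial markers, in the same order of groups, summed to 7.80 to 24.5, 5.07 to 12.3, 6.38 to 75.5 and 6.68 to 33.4 TPM. Erythroid markers summed to 2.29 to 10.2, 0.716 to 1.28, 0.993 to 2.66 and 1.06 to 2.05 TPM. The 2 CD8 T cell markers summed to between 5.68 and 13.5 TPM in SPF isotype and 9.75 and 23.8 TPM in SPF aCD3, with 1.25 to 61.2 TPM in GF isotype and 3.47 to 13.0 TPM in GF aCD3. The part of these cells in the Ifitm levels was not tested.

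Reads can be shared between family members. Of stretches of 50 bases in the transcript, 3.18% of those of Ifitm3 are found in Ifitm2 and 2.38% in Ifitm1. With other genes that do not overlap, 22.8% of those of Ifitm2, 10.0% of Ifitm3 and 7.71% of Ifitm1 are shared. The gene model Gm45717 overlaps Ifitm2 on the same strand. Strand and the handling of reads with several matches are not given in the sources used here, so the level of Ifitm2 is uncertain in this respect.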

How the data were processed

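RNA of 28 libraries was measured by sequencing. The deposited table gives TPM, which the authors computed with HOMER's analyzeRepeats.pl over RefSeq genes of mm10 with condensed transcripts, per the file headers. The labels name both polyA RNA and a total RNA kit, and the aligner is not named, though the column names hold STAR's usual output name. Groups, sex and replicate names came from the labels. Another 26 TPM columns match no sample and were not used.

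The limma package (3.58.1, R 4.3.3) was fitted to log2(TPM + 1) with group means and a sex term and with a trend in moderation, over the 12182 genes that reached 1 TPM in 6 or more libraries. P-values were adjusted by Benjamini-Hochberg with a threshold of 0.05. Whole reads recovered from TPM came out whole within 0.1 for 100% of low values, and voom on them called 3656 genes higher and 3550 lower in SPF aCD3 against SPF isotype. The test was tested on simulated data. Replicates may be technical in part, since the labels do not say that each is a separate animal.

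The members, lists and rule were chosen with earlier results of these data known. The rule named the members, other Ifitm genes, the 3 highest and 3 lowest interferon-stimulated genes and 2 highest and 2 lowest of the other lists past the threshold with a group mean of at least 5 TPM, the 5 genes most like each member, and genes within 100 kb. Python 3.11.15 with pandas 2.3.3 was used. Alternatives were pseudocounts, filters, scalings, a replicate block, a covariate for the range of sample numbers and leaving out each library. Some listed genes are not reported here by name.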

Additional observations from a re-analysis of the deposited data

Results flagged for a closer look

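Within groups of 6 or 10 libraries, 12 sets of untransformed TPM values of the members were examined, and 2 held a library far from the others. The rule's rate of about 1 in 20 holds for normally distributed values, which was not checked for TPM, and the sets share libraries. It is therefore not read here, least of all for Ifitm1 in SPF isotype, where 4 of 6 values are 0. The Ifitm1 level of the SPF isotype library M3 was 1.238 TPM, from 4 reads, while the others were at 0 or 0.329. The Ifitm2 level of the GF aCD3 library M5 was 82.111 TPM, against 28.4 TPM in the next highest library. M5 also had the highest Ifitm3, Lag3 and Il10 of GF aCD3.

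The aCD3 effect differed between GF and SPF mice by -1.99 on the log2 scale for Ifi204 (limma adjusted p = 0.00265) and by 0.82 for Fyn (limma adjusted p = 0.0493). The mean level of Ifi204 was 0.474 TPM with isotype and 8.04 TPM with aCD3 in SPF mice, and 0.617 and 1.504 TPM in GF mice. The mean level of Fyn was 33.2 and 14.8 TPM in SPF mice and 37.6 and 32.1 TPM in GF mice.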

How the results depend on the processing

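The members kept the sign of their log2 difference under every alternative run in the SPF and GF aCD3 comparisons and in the difference of the effect. In GF isotype against SPF isotype, where values are near 0, Ifitm2 was -0.07 and Ifitm3 -0.08 with a replicate block, Ifitm2 was -0.02 and Ifitm3 -0.10 with voom, Ifitm3 was -0.02 with median of ratios and -0.04 with quantile normalization, and leaving out 1 library gave -0.02 for Ifitm1 and -0.05 for Ifitm3. The log2 difference of Ifitm1, with few reads, depended on the pseudocount. At 0.1 it was 5.436 for SPF aCD3 against SPF isotype, -4.02 for GF aCD3 against SPF aCD3 and -4.54 for the difference of the effect. At 5 it was 1.449, -1.332 and -1.37. With voom on recovered reads, added after the data were seen, it was 5.486, -4.511 and -4.914, and Ifitm2 in GF aCD3 against SPF aCD3 was -1.334. The counts of interferon-stimulated genes moved more. In SPF aCD3 against SPF isotype, 6 were lower in TPM, 0 with median of ratios, 1 with voom and 2 without Rn45s and histone genes. In GF aCD3 against GF isotype, 2 were higher, but 0 with a pseudocount of 0.1, 0 with no filter, 0 with the replicate block and 4 without Rn45s and histone genes, and the lower count of 0 was 1 with no sex term and 2 with the range of column numbers as covariate. In GF isotype against SPF isotype, 2 were higher, but 1 with no filter or with the block and 0 with median of ratios, quantile normalization or voom. In GF aCD3 against SPF aCD3, 5 were higher, but 3 with no filter, 2 with quantile normalization or without Rn45s and histone genes, and 1 with median of ratios or voom, and 15 were lower, but 25 with median of ratios and 30 with voom. For the difference of the effect, 1 was lower, but 2 with a pseudocount of 0.1 or no sex term, 3 with quantile normalization, 6 without Rn45s and histone genes, 13 with median of ratios and 19 with voom. The cause was not tested. Leaving out 1 library at a time gave, for GF aCD3 against GF isotype, 0 to 10 higher (10 without GF aCD3 M4) and 0 to 3 lower (3 without F1). It gave 0 to 3 higher in GF isotype against SPF isotype, 3 to 5 higher and 5 to 20 lower in GF aCD3 against SPF aCD3 (5 lower without GF aCD3 F1), and 0 to 2 higher (2 without GF aCD3 M5) and 1 to 19 lower (19 without GF aCD3 M1) for the difference of the effect. Same-named libraries showed no clear common deviation: 4 of 12 pairs had a correlation above 0.1, over a range of -0.208 to 0.198. Such correlations do not show pairing and cannot exclude a shared origin. The replicate block changed no sign of a member where the main difference was above 0.2. Ifitm1 rests on 5 reads in SPF isotype and 22 in GF aCD3, which limits its fold change.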
